A study of Mus musculus with 9 samples.

Results

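Translation initiation factors bring the ribosome to an mRNA and start it at the right codon, and elongation factors then carry it along the reading frame. The genes described here are all rows of the count table whose identifier maps to a mouse symbol starting with *Eif1* to *Eif6*, *Eef1* or *Eef2*, with the 5 kinases that share these prefixes (*Eif2ak1* to *Eif2ak4* and *Eef2k*) left out. The rule found 65 genes of the 17943 in the table, and 64 of these had at least 10 counts over the 9 mice and were tested. *Eif4e1b*, with 1 count in a single *Supt6*-KO mouse, was the gene left out. Because members were taken by name, they include the eIF4E-binding proteins, which hold initiation back, and the methyltransferases that modify elongation factors.

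RNA-Seq was performed on whole skin of 5 control and 4 *Supt6*-KO mice, taken on day 10 after the last injection. *Supt6* encodes SPT6, a histone chaperone that travels with RNA polymerase II during transcript elongation. All mice carried 2 floxed *Supt6* alleles (Supt6 fl/fl). The *Supt6*-KO mice (K14-CreERT; Supt6 fl/fl) also carried a tamoxifen-activated Cre driven by the keratin 14 promoter and were given tamoxifen by daily intraperitoneal injection in the first telogen, whereas the controls lacked Cre and were given corn oil. Deletion, Cre and tamoxifen were therefore applied together and cannot be told apart here. Since the keratin 14 promoter is active in basal keratinocytes, the dermal, muscle and immune cells of the sample were not the target of the deletion. Counts of whole skin do not show in which cells *Supt6* was lost. The sample labels give the tissue as ear and the controls as wild type, whereas the study describes dorsal skin. According to the study, the *Supt6*-KO samples came from lesions and the control samples from matched skin. Strain, age and sex of these mice are not in the labels, and nothing in them names a batch. The estimated counts summed to 29627341 to 30491197 in the controls and 30597189 to 30967107 in the *Supt6*-KO mice, so depth was nearly equal.

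In a cap-dependent start, eIF4E binds the cap, the scaffold eIF4G joins it to the helicase eIF4A, and eIF3 links this complex to the small ribosomal subunit, which carries the initiator tRNA on eIF2. The exchange factor eIF2B reloads eIF2 with GTP, and phosphorylation of eIF2 by stress kinases blocks that step. During elongation eEF1A delivers each aminoacyl-tRNA, and eEF2 moves the ribosome by a codon. The mRNAs of eEF1A, eEF2 and several eIF3 subunits start with a pyrimidine tract, like those of ribosomal proteins, and their translation responds to mTORC1.

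*Supt6* itself was measured first, as a check on the labels. Its level was 74.5, 56.6, 63.6, 91.1 and 96.7 CPM in controls 1 to 5 and 28.6, 24.1, 21.9 and 28.4 CPM in *Supt6*-KO mice 1 to 4. All 4 *Supt6*-KO mice lay below all 5 controls, and the level was 2.97-fold lower (log2 fold change -1.57, SE 0.18, adjusted p = 1.3e-05). The log2 fold change was -2.26 with library totals and -0.68 after the correction for transcript length given further on, and passed on both. CPM are counts scaled to a common library size after adjustment of the libraries by edgeR's TMM factors, fold changes and adjusted p-values are from edgeR's quasi-likelihood test over all 16428 genes tested, and ± gives the SD. The tissue carried the markers of skin: the 8 keratinocyte markers summed to 27668 to 31625 CPM in the controls and 29708 to 41728 CPM in the *Supt6*-KO mice. Of the 8, *Krt1* rose (log2 fold change 3.65), *Krt5* (-0.86), *Krt15* (-2.65), *Trp63* (-1.21), *Dsp* (-1.37) and *Col17a1* (-2.45) fell, and the most abundant, *Krt10* (0.19, adjusted p = 0.56), and *Krt14* (0.66, 0.063) did not pass. Cartilage markers summed to 259.7 to 646 CPM in the controls and 44.9 to 52.7 CPM in the *Supt6*-KO mice, and skeletal muscle markers to 4283 to 5788 CPM in the controls and 1001 to 1745 CPM in the *Supt6*-KO mice. None of the marker genes measured was at 0 in every mouse, and the T cell gene *Trac* had no row in the table.

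Most translation factor mRNAs were more abundant in *Supt6*-KO skin. Of the 64 members tested, 47 rose and 10 fell at an adjusted p under 0.05, where 71.0% of all genes tested were called, 34.1% higher and 36.8% lower. At least a 2-fold change as well was reached by 30 members that rose, against 20.9% of all genes. It was reached by 3 that fell, *Eef1a2*, *Eif4ebp2* and *Eif4g3*, against 24.9%. The 47 and the 30 include *Eif3j1* and *Eef1akmt4-ece2*, which had 0 counts in all controls. These genes reached the count filter only through *Supt6*-KO mice. When each mouse had to have 10 counts or more of a gene, 43 members rose and 10 fell, 27 and 3 of them at least 2-fold. Over all 64 members tested the median log2 fold change was 0.92, against -0.07 over all genes tested. Every *Supt6*-KO mouse was above every control for 43 members and below for 9, where 28.9% and 31.8% of all genes did so. Among the members with every *Supt6*-KO mouse above is *Eif3j1*, for which *Supt6*-KO mice 3 and 4 had 1 and 2 counts against 0. These counts are under the floor of 3 counts per library, so that its separation is not measurable at this depth. These 52 members were taken for their separate groups, which nearly fixes the outcome of a permutation test, so the test adds no support. For 48 of them, *Eif3j1* included, the 2-sided exact permutation test of the group means gave p = 0.00794. That is the smallest value that 5 mice against 4 allow. *Eif1b*, *Eif2b4* and *Eif5b* gave p = 0.0159 and *Eif2s3x* p = 0.0476 by the same exact test. The 7 members that did not pass were *Eif3b*, *Eif3f*, *Eif5a2*, *Eif4ebp3*, *Eef1akmt3*, *Eef1aknmt* and *Eif2s3y*. In bulk tissue, fewer cells of a type and less RNA per cell cannot be told apart.

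These counts depend on how the libraries are scaled. TMM factors were 1.198 to 1.315 in the controls and 0.674 to 0.91 in the *Supt6*-KO mice. With library totals in their place the members' median went from 0.92 to 0.23, while the median over all genes tested went from -0.07 to -0.76. On that scale 28 members rose and 16 fell, against 16.9% and 54.6% of all genes, and all 28 and the 10 of the main result were called in the same direction. Of the members called higher with TMM factors, *Eif1b* was called lower with library totals. Members made up 2.52% to 3.35% of all counts in the controls and 3.57% to 5.53% in the *Supt6*-KO mice, a share that no scaling can move. *Eef1a1* carried most of that difference in *Supt6*-KO mice 1 to 3. In mouse 4 its share was 1.58%, inside the 1.11% to 1.64% of the controls. Without *Eef1a1* the members' shares were 1.41% to 1.71% in the controls and 1.72% to 1.99% in the *Supt6*-KO mice, which still did not overlap.

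**Figure D1:**
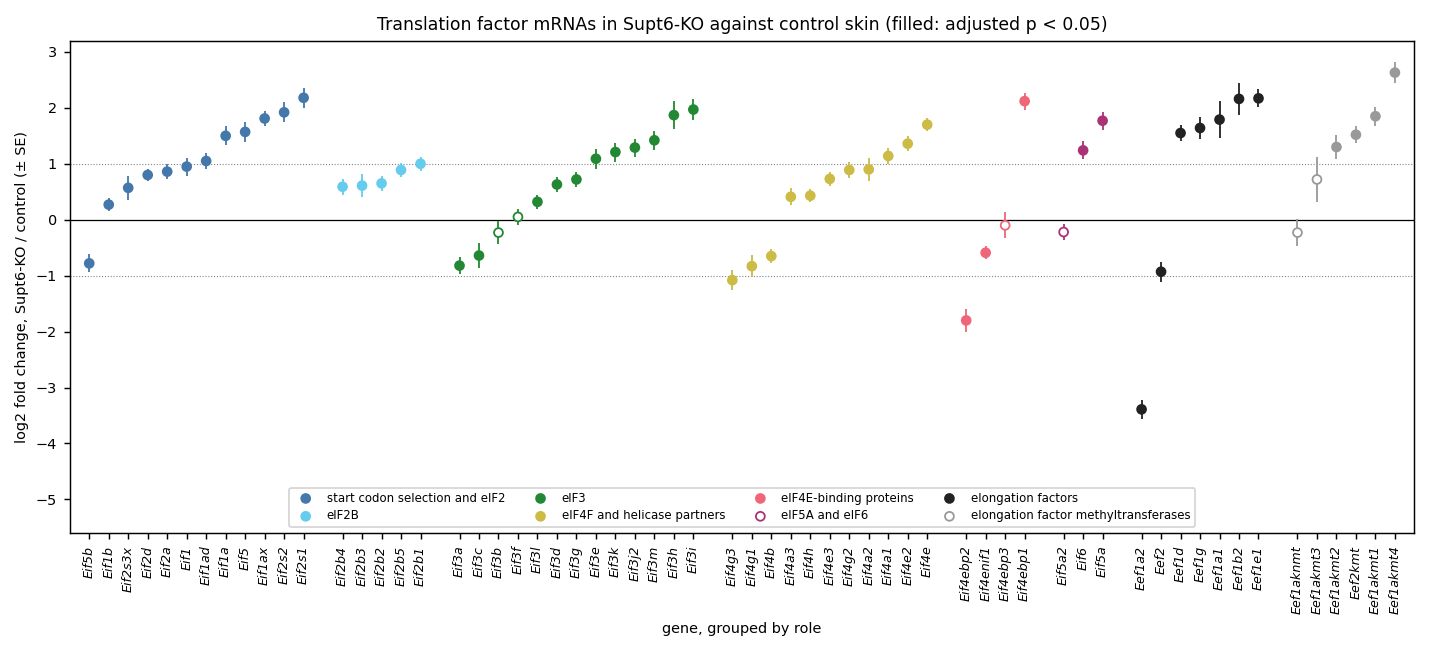
Log2 fold change (*Supt6*-KO over control, y axis) with its SE for 61 members, grouped by role along the x axis and ordered within each role; filled points passed an adjusted p of 0.05 and dotted lines mark a 2-fold change. *Eef1a2*, at -3.39, lies farthest below 0 and *Eef1akmt4*, at 2.63, farthest above; with library totals all points move down by about the same amount, and *Eif1b*, *Eif2s3x*, *Eif2b2*, *Eif2b3*, *Eif2b4*, *Eif3d*, *Eif3f*, *Eif3l*, *Eif4a3* and *Eif4h* then lie below 0.

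Elongation factors showed both the most abundant member and the largest fall. Per length, in the deposited TPM of the controls, *Eef1a1* stood at 11657 ± 1023 TPM (n = 5), *Eef2* at 1548 ± 224 TPM, *Eif5a* at 1011 ± 49.2 TPM, *Eef1g* at 777 ± 61.3 TPM and *Eif1* at 754 ± 26.6 TPM. The last 2 lay within each other's spread, and the other steps in this order were larger than the SDs. *Eef1a1*, the eEF1A isoform of most cells (chromosome 9, 78478453 to 78481724 in GRCm38), was at 10444, 13687, 12830.4, 9466 and 8442 CPM in controls 1 to 5 and 35084, 55628, 43369 and 17399 CPM in *Supt6*-KO mice 1 to 4. All *Supt6*-KO mice were above the controls, *Supt6*-KO mouse 4 by far the least, and the mean was 3.45-fold higher (log2 fold change 1.79, SE 0.33, adjusted p = 0.00048). As a share of all counts, *Eef1a1* was 1.11% to 1.64% in the controls, 2.74%, 3.75% and 3.06% in *Supt6*-KO mice 1 to 3 and 1.58% in mouse 4, which thus lay inside the control range on that scale.

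*Eef1a2* (chromosome 2, 181141758 to 181157015) encodes the isoform that replaces eEF1A1 in adult skeletal muscle and neurons. It was at 85.2, 87.2, 89.4, 75.0 and 79.3 CPM in controls 1 to 5 and 9.61, 8.30, 5.26 and 8.51 CPM in *Supt6*-KO mice 1 to 4. The groups were far apart and *Eef1a2* was 10.5-fold lower (log2 fold change -3.39, SE 0.17, adjusted p = 1.2e-07), the largest change of any tested member with at least 10 counts in every mouse. The 2 genes share 80.1% of 1389 aligned coding bases, and the longest identical stretch is 23 bases. Their first 60 coding bases (GENCODE M21, 5′ to 3′) are printed to show how far reads can separate them, with the differing bases in capitals.
Eef1a1: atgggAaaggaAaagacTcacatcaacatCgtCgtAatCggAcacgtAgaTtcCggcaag
Eef1a2: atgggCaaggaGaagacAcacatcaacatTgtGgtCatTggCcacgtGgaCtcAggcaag
Within this stretch 11 bases differ, and no identical stretch of the coding parts is as long as a read. Skeletal muscle markers moved the same way as *Eef1a2*. Of the 10 markers, 9 fell and none rose, with a median log2 fold change of -2.12. Their sum in controls 1 to 5 was 5206, 5535, 5788, 4283 and 4586 CPM, and in *Supt6*-KO mice 1 to 4 it was 1251, 1745, 1515 and 1001 CPM. *Acta1*, the most abundant of them, had a log2 fold change of -2.66 and *Myh4* of -4.38, while *Mylpf* (-0.36, adjusted p = 0.21) did not pass. The 7 neuron and Schwann cell markers summed to 261 to 371 CPM in the controls and 66.6 to 97.7 CPM in the *Supt6*-KO mice, with 4 lower and 1 higher, and the neuronal *Nefl* and *Snap25* were near 0, at 0.0757 and 0.0756 CPM in the control mean. The part of these cell types in the fall of *Eef1a2* was not tested.

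*Eef2*, the translocase (chromosome 10, 81176631 to 81182509), was at 2849.7, 2926, 2361, 3069.8 and 2381 CPM in controls 1 to 5 and 1766, 1512, 1257 and 1159.7 CPM in *Supt6*-KO mice 1 to 4. It fell 1.91-fold with no overlap (log2 fold change -0.93, SE 0.18, adjusted p = 0.00077), so that the 2 principal elongation factors moved apart. The subunits of the eEF1B exchange factor, which recycles eEF1A, all rose: *Eef1b2* 4.46-fold, *Eef1g* 3.11-fold and *Eef1d* 2.93-fold. *Eef1b2* was at 495, 674, 604, 507 and 370.2 CPM in controls 1 to 5 and 2101, 3332, 2748 and 1270.3 CPM in *Supt6*-KO mice 1 to 4. The spread among *Supt6*-KO mice was wide, with mouse 4 again lowest, yet every one exceeded the highest control (log2 fold change 2.16, SE 0.28, adjusted p = 3.2e-05). *Eef1e1*, which despite its name is a scaffold of the multi-tRNA synthetase complex, rose 4.51-fold, from 18.6 ± 3.70 to 83.8 ± 10.9 CPM (adjusted p = 8.3e-07). In all, 5 elongation factors rose and 2 fell of the 7 tested, with TMM factors and with library totals.

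The enzymes that methylate elongation factors were expressed at low levels. Of 7 tested, 5 rose and none fell with TMM factors, and 4 rose and 1 fell with library totals. *Eef1akmt4* was at 4.04, 4.90, 4.24, 3.92 and 3.92 CPM in controls 1 to 5 and 21.6, 31.9, 32.2 and 18.8 CPM in *Supt6*-KO mice 1 to 4. This was a 6.21-fold rise with no overlap (log2 fold change 2.63, SE 0.19, adjusted p = 7.6e-07), the largest of any member with at least 10 counts in every mouse. *Eef1akmt1* rose 3.60-fold, *Eef2kmt*, which modifies eEF2, 2.87-fold and *Eef1akmt2* 2.47-fold, all with separate groups. *Eef1aknmt* had a log2 fold change of -0.23 (adjusted p = 0.41) but was called lower without *Supt6*-KO mouse 4, and *Eef1akmt3* stayed between 0.144 and 0.549 CPM in all 9 mice. The readthrough transcript *Eef1akmt4-ece2*, which shares sequence with *Eef1akmt4*, had 0 counts in all controls and 0, 11, 0 and 3 counts in *Supt6*-KO mice 1 to 4. It is among the 47 members called higher and the 5 of this role with TMM factors. It reached the count filter only through *Supt6*-KO mice, and its groups overlapped at 0. Enzymes that place hypusine on eIF5A and diphthamide on eEF2 moved likewise: 7 of 9 rose and none fell (4 and none with library totals), with *Dnajc24* at a log2 fold change of 1.89, *Dph3* at 1.75 and the hypusine enzyme *Dhps* at 1.44.

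Among factors of start codon selection, 11 of 13 rose and 1 fell (6 and 2 with library totals), and the 3 subunits of eIF2 did not move alike. *Eif2s1* (chromosome 12, 78862072 to 78887010) encodes the alpha subunit, which stress kinases phosphorylate. It was at 75.1, 89.9, 85.5, 64.3 and 57.0 CPM in controls 1 to 5 and 271, 315, 333 and 432 CPM in *Supt6*-KO mice 1 to 4. Every *Supt6*-KO mouse was more than 2-fold above every control, and the mean was 4.54-fold higher (log2 fold change 2.18, SE 0.18, adjusted p = 1.7e-06). *Eif2s2*, the beta subunit, rose 3.77-fold, from 197 ± 33.3 to 745 ± 152 CPM (adjusted p = 3.7e-06). The gamma subunit has an X-linked gene, *Eif2s3x*, and a Y-linked gene, *Eif2s3y*. *Eif2s3x* was at 323, 246, 320.0, 204 and 167 CPM in controls 1 to 5 and 350.4, 331, 327 and 484 CPM in *Supt6*-KO mice 1 to 4. The groups did not overlap, but controls 1 and 3 came close to the *Supt6*-KO mice, and the rise was 1.48-fold (log2 fold change 0.57, SE 0.21, adjusted p = 0.032); with library totals its log2 fold change was -0.10.

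*Eif2s3y* had 0 counts in controls 1 and 3, from 2110 to 2919 counts in the other 3 controls, and from 1714 to 3268 counts in the *Supt6*-KO mice. Thus 2 controls lacked the transcript, and the same 2 had the highest *Eif2s3x* of the controls. Sex is not labelled and its part in the result was not tested. With only the 3 controls that had *Eif2s3y* counts, an alternative chosen after these values were seen, 43 members rose and 9 fell. In that fit *Eif2s3x* had a log2 fold change of 0.86 (adjusted p = 0.0064), and *Eif2s3y* was called higher (0.61, 0.031). The first 60 coding bases of the pair (GENCODE M21, 5′ to 3′) are given because the 0 counts rest on reads being assigned to the right copy, and capitals mark differing bases.
Eif2s3x: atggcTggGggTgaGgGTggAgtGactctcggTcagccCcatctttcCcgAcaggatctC
Eif2s3y: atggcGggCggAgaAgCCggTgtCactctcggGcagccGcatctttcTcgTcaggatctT
These differ at 13 positions, and over all 1419 coding bases 86.3% are identical, with no identical stretch above 34 bases.

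Of the factors that scan for the start codon, *Eif1ax* rose 3.51-fold and *Eif1a* 2.83-fold. *Eif1ax* was at 138, 169, 160.2, 127 and 119.6 CPM in controls 1 to 5 and 468, 503, 533 and 498 CPM in *Supt6*-KO mice 1 to 4. Both groups were tight and separate (log2 fold change 1.81, SE 0.14, adjusted p = 1.1e-06). *Eif1*, which guards start codon fidelity, rose 1.93-fold with TMM factors but did not pass with library totals (0.24, adjusted p = 0.12). Its paralog *Eif1b* was at 17.96 to 23.2 CPM in the controls and 23.3 to 25.4 CPM in the *Supt6*-KO mice. The lowest *Supt6*-KO value was only just above the highest control, the log2 fold change was 0.27 (adjusted p = 0.049), and it became -0.42 with library totals. *Eif5*, which triggers GTP hydrolysis on eIF2, rose 2.98-fold (adjusted p = 1.2e-05). *Eif5b*, which joins the ribosomal subunits, was the one member of this role that fell, 1.72-fold, from 71.6 ± 11.1 to 41.7 ± 7.69 CPM (adjusted p = 0.00088), and it was not called after a correction for length.

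All 5 subunits of eIF2B rose with TMM factors, by 1.5-fold (*Eif2b4*) to 2.0-fold (*Eif2b1*), and none was called in either direction with library totals. With implied lengths 3 of the 5 were called higher, and *Eif2b2* and *Eif2b3* were not. *Eif2b5*, the catalytic subunit, was at 76.0, 76.8, 74.1, 69.1 and 60.7 CPM in controls 1 to 5 and 118, 124, 124 and 162 CPM in *Supt6*-KO mice 1 to 4. The groups were separate for 4 of the 5, and for *Eif2b3* they overlapped. The rise of eIF2B was smaller than that of *Eif2s1* and *Eif2s2*. *Eif2s3x* rose 1.48-fold, no more than any eIF2B subunit, and is not in the ratios that follow. These ratios were formed after the members' values were known. In each of the 10 count ratios of *Eif2s1* or *Eif2s2* to an eIF2B subunit, every *Supt6*-KO mouse was above every control, with a difference in mean log2 ratio of 0.91 (*Eif2s2* to *Eif2b1*) to 1.62 (*Eif2s1* to *Eif2b3*).

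The 14 genes of eIF3 did not move alike. In all 10 rose and 2 fell (7 and 4 with library totals). Both the 10 and the 7 include *Eif3j1*, which had 0 counts in all controls and reached the count filter only through *Supt6*-KO mice. They also include its copy *Eif3j2*. The core subunits *Eif3a*, *Eif3b* and *Eif3c* had log2 fold changes of -0.82 (adjusted p = 0.00048), -0.23 (0.34) and -0.64 (0.025). *Eif3a*, on which the complex is built, was at 216, 170.1, 163, 231 and 243 CPM in controls 1 to 5 and 102, 124, 112 and 125 CPM in *Supt6*-KO mice 1 to 4. Its groups were separate, although the call ended with a correction for transcript length given further on. *Eif3c* was at 175, 151, 133, 174 and 169.6 CPM in controls 1 to 5 and 98.0, 72.1, 75.6 and 165 CPM in *Supt6*-KO mice 1 to 4, so that mouse 4 lay within the controls and the other 3 far below them. Its call was lost without control 4 or without any one of *Supt6*-KO mice 1 to 3. *Eif3b* was at 190.2, 179, 154, 204 and 172 CPM in controls 1 to 5 and 145, 121, 112 and 236 CPM in *Supt6*-KO mice 1 to 4. Here too mouse 4 stood above the other 3, and without it *Eif3b* was called lower. The peripheral subunit *Eif3i* rose 3.92-fold (log2 fold change 1.97, SE 0.19, adjusted p = 4.6e-06) and *Eif3h* 3.65-fold. *Eif3h* was at 302, 402, 377, 293 and 234 CPM in controls 1 to 5 and 1007, 1613, 1394 and 682 CPM in *Supt6*-KO mice 1 to 4. It was separate from the controls in all mice, with mouse 4 lowest. *Eif3m* rose 2.68-fold, *Eif3k* 2.32-fold and *Eif3e* 2.13-fold, while *Eif3f* stood at 316 ± 49.5 and 328 ± 41.6 CPM and did not pass (adjusted p = 0.77). *Eif3k* was not called after either correction for length (0.19, adjusted p = 0.11 with implied lengths).

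The eIF3j subunit has 2 gene copies, *Eif3j1* and *Eif3j2*, whose coding sequences are identical at all 786 aligned positions, with an identical stretch of 784 bases. *Eif3j1* had 0 counts in every control and 525, 523, 1 and 2 counts in *Supt6*-KO mice 1 to 4, which is at least 146-fold higher on the mean of the 4 against a floor of 3 counts per library. The value rests on mice 1 and 2, and reads from the coding part cannot be assigned to either copy. *Eif3j2* was at 112, 127, 112, 102 and 80.7 CPM in controls 1 to 5 and 217, 249.8, 258 and 321 CPM in *Supt6*-KO mice 1 to 4, 2.45-fold higher with separate groups (log2 fold change 1.29, SE 0.16, adjusted p = 2.3e-05). Taken as one feature, the counts of both copies were 3169 to 4645 in the controls and 5632 to 8947 in the *Supt6*-KO mice.

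The cap-binding complex eIF4F was also uneven. Of 11 members tested in this role, 8 rose and 3 fell (3 and 3 with library totals). *Eif4e*, the cap-binding protein, was at 108, 119, 105, 94.9 and 87.9 CPM in controls 1 to 5 and 329, 353, 306 and 352 CPM in *Supt6*-KO mice 1 to 4. This 3.25-fold rise exceeded the spread in both groups by far (log2 fold change 1.70, SE 0.12, adjusted p = 8.8e-07). Its relatives *Eif4e2* and *Eif4e3* rose 2.57-fold and 1.66-fold, the latter with a log2 fold change of 0.04 (adjusted p = 0.83) with library totals. The scaffolds went the other way: *Eif4g1* was at 339, 240.2, 247, 352 and 377 CPM in controls 1 to 5 and 164, 150.0, 147 and 236 CPM in *Supt6*-KO mice 1 to 4. It was 1.78-fold lower with separate groups, although *Supt6*-KO mouse 4 came near the lowest control (log2 fold change -0.83, SE 0.20, adjusted p = 0.0026). *Eif4g3* fell 2.11-fold, from 48.4 ± 12.6 to 22.9 ± 1.96 CPM (adjusted p = 0.00023). Neither scaffold was called after the correction for length. *Eif4g2*, whose product resembles eIF4G but lacks the eIF4E-binding part, rose 1.85-fold, from 935 ± 89.0 to 1732 ± 77.4 CPM (adjusted p = 0.00015), but with library totals its log2 fold change was 0.19 (adjusted p = 0.20).

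The helicase genes *Eif4a1* and *Eif4a2* rose 2.20-fold and 1.86-fold, and with library totals *Eif4a2* did not pass (0.16, adjusted p = 0.37). *Eif4a1* was at 656, 751, 676, 632 and 512 CPM in controls 1 to 5 and 1369, 1357, 1327 and 1618 CPM in *Supt6*-KO mice 1 to 4. Its groups were separate (log2 fold change 1.14, SE 0.15, adjusted p = 4.7e-05). *Eif4a3*, a core protein of the exon junction complex and not of eIF4F, had a log2 fold change of 0.41 (adjusted p = 0.03) with overlapping groups, and -0.25 with library totals. Of the 2 helicase stimulators, *Eif4b* fell 1.57-fold (adjusted p = 0.00067) but was not called after the correction with implied lengths (-0.22, 0.11), whereas *Eif4h* had a log2 fold change of 0.43 (adjusted p = 0.0067), which was -0.25 (0.16) with library totals.

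The eIF4E-binding proteins, which compete with eIF4G for eIF4E until mTORC1 phosphorylates them, moved in opposite directions. *Eif4ebp1* was at 21.1, 23.9, 21.2, 18.2 and 15.05 CPM in controls 1 to 5 and 69.2, 83.8, 96.6 and 96.3 CPM in *Supt6*-KO mice 1 to 4. It rose 4.35-fold with widely separate groups (log2 fold change 2.12, SE 0.15, adjusted p = 8.8e-07). *Eif4ebp2* was at 31.6, 26.6, 28.2, 36.5 and 35.2 CPM in controls 1 to 5 and 11.6, 6.09, 6.95 and 11.5 CPM in *Supt6*-KO mice 1 to 4. It fell 3.49-fold, also with no overlap (log2 fold change -1.80, SE 0.21, adjusted p = 1.9e-05). *Eif4ebp3*, at 4.11 ± 0.308 CPM in the controls and 3.85 ± 1.21 CPM in the *Supt6*-KO mice, did not pass (adjusted p = 0.70). *Eif4enif1*, the eIF4E transporter, fell 1.51-fold (adjusted p = 0.0011), a call that ended with either correction for length. In this role 1 gene rose and 2 fell, and 1 rose and 3 fell with library totals.

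*Eif5a*, whose hypusine-bearing product helps ribosomes through difficult peptide bonds, was at 661, 783, 744, 618 and 508 CPM in controls 1 to 5 and 2129, 2158, 2273 and 2465 CPM in *Supt6*-KO mice 1 to 4. It rose 3.40-fold (log2 fold change 1.77, SE 0.16, adjusted p = 3.7e-06), whereas its paralog *Eif5a2* stood at 11.7 ± 1.25 and 10.1 ± 0.916 CPM (adjusted p = 0.17). *Eif5a2* was called in opposite directions by the alternatives, lower with library totals (-0.91, adjusted p = 0.00057) and higher with the length correction (0.46, 0.0096). *Eif6*, which keeps the large ribosomal subunit from joining too early, rose 2.37-fold, from 144 ± 26.3 to 342 ± 45.2 CPM (adjusted p = 3.7e-05). Both rises also passed with library totals.

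Because the members moved unequally, ratios of counts within a mouse, which need no scaling, separated the groups. *Eef1a1* had 3.08 to 5.43 counts per count of *Eef2* in the controls and 15 to 36.8 in the *Supt6*-KO mice. *Eif4e* had 0.233 to 0.497 counts per count of *Eif4g1* in the controls and 1.49 to 2.35 in the *Supt6*-KO mice, so the order of the 2 genes turned in every mouse. The ratio of *Eif4ebp1* to *Eif4ebp2* counts turned likewise, from 0.428 to 0.897 in the controls to 5.98 to 13.9 in the *Supt6*-KO mice. *Eif3h* had 0.962 to 2.36 counts per count of *Eif3a* in the controls and 5.44 to 13.0 in the *Supt6*-KO mice, and *Eif4a1* 1.26 to 1.67 and 4.52 to 5.88 per count of *Eif4b*. In none of the ratios named did any *Supt6*-KO mouse reach the control range. These pairs were formed after the members' values were known and are given as a description. The ratios need no scaling but are not corrected for transcript length, described next. With lengths implied by the deposited values, *Eif3h* and *Eif3a* had log2 fold changes of 1.21 and -0.09, against 1.87 and -0.82 without the correction. *Eif4e* and *Eif4g1* had 2.36 and -0.07 with implied lengths and 0.74 and -0.03 with GENCODE lengths, against 1.70 and -0.83.

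**Figure D2:**
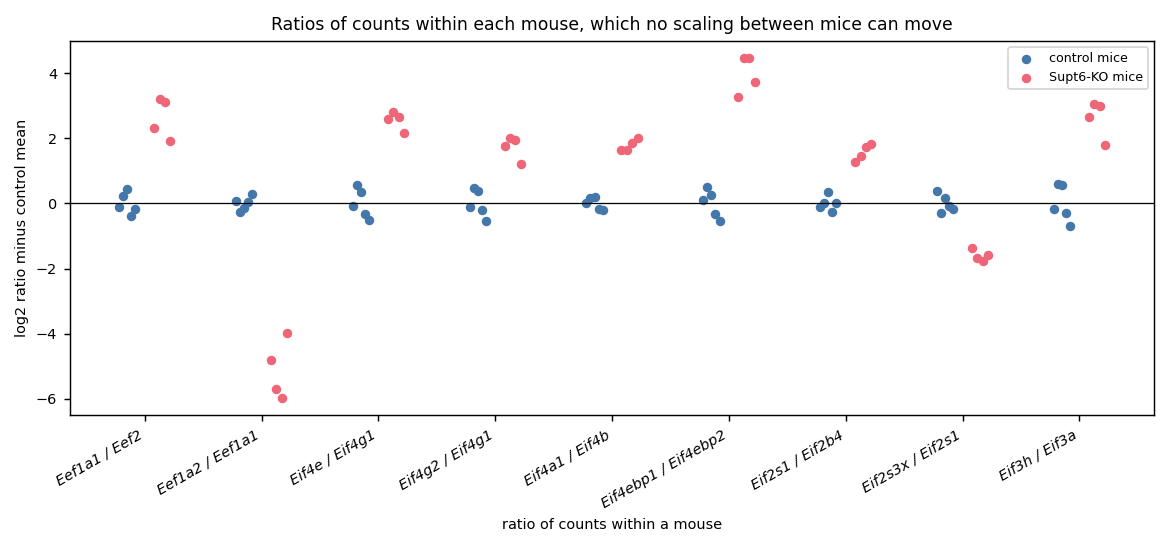
Log2 ratio of the counts of 2 members within a mouse, minus the mean over the controls (y axis), for 9 pairs along the x axis; each point is a mouse (blue, control; red, *Supt6*-KO). For all 9 pairs the 2 groups are apart, with a difference in mean log2 ratio of 1.58 for *Eif2s1* to *Eif2b4*, 3.98 for *Eif4ebp1* to *Eif4ebp2* and -5.12 for *Eef1a2* to *Eef1a1*.

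Transcript length moved with the fold change over the whole transcriptome. Lengths were taken from the deposited counts and TPM of the controls, since their quotient is proportional to the effective length RSEM used. In each control the quotient was scaled to GENCODE lengths by the median over genes, so these are effective lengths on that scale. Over 13579 genes with a mean log2 CPM above 0, the log2 fold change fell by 1.65 per 10-fold of length (Pearson's r = -0.36, Spearman's rho = -0.45), and over 61 members it fell by 1.74 (r = -0.48, rho = -0.41). Genes share libraries and are not replicates, so these are descriptions. Of 23 members under 1500 bases, 20 rose and none fell, where 67.5% of all genes of that length rose and 14.9% fell. Of 23 members from 1500 to 3000 bases, 19 rose and 2 fell, against 41.2% and 31.5%. Of 15 members above 3000 bases, 6 rose and 8 fell, against 20.2% and 54.9%. The members therefore followed the length pattern of the other genes, with shares of higher genes above the background in each length class.

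Among the long members, *Eif4e*, *Eif1ax*, *Eif2s1*, *Eif5*, *Eif4g2* and *Eif2s3x* rose against that trend. For *Eif4e* this rests on the implied length of 5163 bases, with which its corrected log2 fold change was 2.36. The GENCODE length, 792.5 bases, places it among the short genes, and the corrected value was then 0.74 (adjusted p = 0.0010). With a correction for length in each mouse, 41 members rose and 6 fell, against 36.6% and 31.1% of all genes. GENCODE lengths in place of the implied ones also gave 41 and 6, against 36.3% and 31.2%, but not all the same genes: *Eif4b* was lower with GENCODE lengths (-0.48, adjusted p = 0.0028) and *Eif3f* was not called (0.17, 0.32). With either set of lengths *Eif5a2* was gained among the higher members. Values that follow are with implied lengths. Of the 10 lower members, *Eif4g1* (-0.07, adjusted p = 0.69), *Eif4g3* (-0.21, 0.14), *Eif4b* (-0.22, 0.11), *Eif3a* (-0.09, 0.50), *Eif3c* (-0.51, 0.05), *Eif5b* (0.26, 0.10) and *Eif4enif1* (-0.22, 0.075) were then no longer called. *Eef1a2* (-2.36), *Eif4ebp2* (-2.09) and *Eef2* (-0.71) stayed lower, and the short *Eif1b* (-0.67), *Eif3f* (-0.41) and *Eif4ebp3* (-0.85) were called lower instead. The length of *Eef1a2* differed between the sets, at 8490 bases implied and 2084 bases in GENCODE. With GENCODE lengths its corrected log2 fold change was -3.43. Of the 47 higher members, *Eif2b2* (0.27, 0.10), *Eif2b3* (0.20, 0.40), *Eif3g* (-0.05, 0.76), *Eif3k* (0.19, 0.11), *Eif3l* (0.11, 0.42) and *Eif4a3* (-0.07, 0.73) were no longer called, and with GENCODE lengths *Eef1akmt2* (0.35, 0.084) was lost in place of *Eif2b2*. *Eif4g2* went to 1.90. The correction takes away every difference that goes with length, whatever its source, and the cause of the trend was not tested.

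Within the *Supt6*-KO group, mouse 4 stood apart. It was the highest of the 4 for 28 of the 64 members and the lowest for 19, where it was the highest for 35.4% and the lowest for 33.9% of all genes. Relative to the mean of the other 3, its log2 CPM was 1.34 lower for *Eef1a1*, 1.08 lower for *Eef1b2*, 1.03 lower for *Eif4ebp3* and 0.95 lower for *Eif3h*, and it was 1.02 higher for *Eif3c*, 0.96 for *Eef1aknmt*, 0.91 for *Eif3b* and 0.85 for *Eif2b3*. For *Eif3j1*, with 2 counts in mouse 4, the difference was -4.85. Its TMM factor, 0.91, was the nearest to those of the controls, and the summed CPM of 83 ribosomal protein genes was 136377 in it against 217393 to 328323 in the other 3. Proliferation markers (*Mki67*, *Pcna* and 5 others) summed to 226 to 288 CPM in the controls, 316 to 422 in *Supt6*-KO mice 1 to 3 and 982 in mouse 4. Of these 7, 4 rose and none fell, with a median log2 fold change of 0.69 that was 0.05 with library totals, and *Mki67* (0.47, adjusted p = 0.32), *Top2a* (0.57, 0.23) and *Mcm2* (-0.05, 0.89) did not pass. Their part in the difference of mouse 4 was not tested. Without this mouse 43 members rose and 12 fell. The median deviation of the members from the control mean was 0.86, 1.10, 0.91 and 0.86 log2 in *Supt6*-KO mice 1 to 4, and between -0.24 and 0.20 in the controls, so on that measure mouse 4 was like mouse 1.

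**Figure D3:**
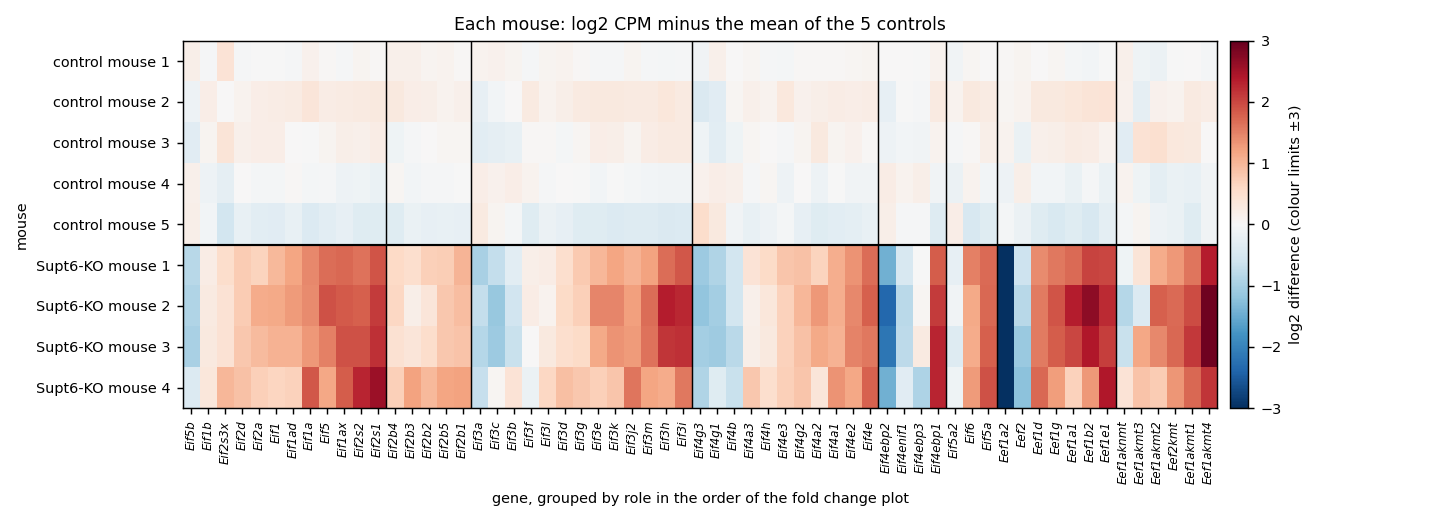
Log2 CPM of 61 members (x axis, grouped by role) in each of the 9 mice (y axis), minus the mean of the 5 controls, as colour from blue (lower) to red (higher). Control rows are pale throughout; the *Supt6*-KO rows are mostly red, with blue at *Eef1a2*, *Eif4ebp2*, *Eif4g1*, *Eif4g3*, *Eif3a* and *Eef2*, and mouse 4 is paler at *Eef1a1* and *Eif3c*.

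Markers of immune cells and fibroblasts were measured as well. Neutrophil markers (7 genes, *S100a9* the most abundant) summed to 14.0 to 42.8 CPM in the controls and 2516 to 6449 CPM in the *Supt6*-KO mice, with 6 higher and 1 (*Mpo*) lower. *S100a8* and *S100a9*, which keratinocytes of inflamed skin also express, made up 98.8% to 99.4% of the sum in the *Supt6*-KO mice. The other 5 genes summed to 4.18 to 9.36 CPM in the controls and 24.03 to 76.7 CPM in the *Supt6*-KO mice, and *Ly6g* was at 0.222 CPM in the *Supt6*-KO mean with overlapping groups. *Mpo* was low in both groups, at 0.354 CPM in the control mean and 0.0104 CPM in the *Supt6*-KO mean. Macrophage markers (6 genes, *Mrc1* the most abundant in the *Supt6*-KO mice) summed to 81.8 to 192 CPM in the controls and 208 to 256 CPM in the *Supt6*-KO mice, with 5 higher and 1 (*Csf1r*) lower, and 2 higher and 1 lower with library totals or with the length correction. T cell markers summed to 21.7 to 28.6 CPM in the controls and 3.59 to 7.19 CPM in the *Supt6*-KO mice. Of these, *Cd3e* (-4.13) and *Cd3g* (-2.65) fell, *Cd8a* (1.88) rose with overlapping groups, and *Cd4* (0.10, adjusted p = 0.80) did not pass. The fibroblast sum was 2929 to 10541 CPM in the controls and 1948 to 3781 CPM in the *Supt6*-KO mice. Of its 6 genes, 4 fell and none rose, and 6 fell with library totals and 3 with the length correction. *Col1a1* was at -3.64, *Col1a2* at -2.37, *Pdgfra* at -0.96 and *Dcn* at -0.75. *Col3a1*, the most abundant (-0.31, adjusted p = 0.43), and *Lum* (0.04, 0.88) did not pass. How much these cells contributed to the members' values was not tested.

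The 83 cytosolic ribosomal protein genes, which share control by mTORC1 with several members, were taken as a yardstick. Of these, 82 rose and 1 fell (*Rpl3l*, the muscle paralog of *Rpl3*, at -1.66, named after its value was seen), against 71 and 1 with library totals and 60 and 7 with the length correction. They had a median log2 fold change of 1.89, above the 0.92 of the members, and with the length correction the medians were 0.72 and 0.78. Termination and recycling factors gave 6 higher and 1 lower of 7 (3 and 1 with library totals): *Denr*, a re-initiation factor, had a log2 fold change of 1.82, *Mcts2* 1.37, *Mcts1* 1.36 and *Gspt2* -1.51. Poly(A)-binding proteins, which circularize mRNAs through eIF4G, gave 2 higher (*Paip2*, 1.22, and *Paip2b*, 0.43) and 2 lower (*Pabpc4*, -1.04, and *Pabpc1*, -0.40) of 5. This was 1 and 3 with library totals, and 3 and 1 with the length correction. *Paip2* encodes an inhibitor of the binding proteins. Mitochondrial translation factors gave 6 higher and none lower of 9 (2 and 1 with library totals), led by *Mrrf* (1.32), *Mtif3* (1.11) and *Mtrf1* (1.07). Cytosolic aminoacyl-tRNA synthetases and their scaffold proteins were mixed, with 11 higher and 3 lower of 23 with TMM factors. They gave 2 higher and 8 lower with library totals, and 10 higher and 1 lower with the length correction. With TMM factors *Aimp1* (1.63), *Aimp2* (1.41) and *Rars* (1.07) led the rises, and *Tarsl2* (-0.92), *Vars* (-0.75) and *Eprs* (-0.46) the falls. The length correction put these last genes at -0.66, -0.25 and 0.20.

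Kinases that act on these factors went largely the other way. Of the 4 eIF2 kinases, the eEF2 kinase and 2 regulatory subunits of the eIF2 phosphatase, 5 fell and 2 rose. All 5 kinases fell: *Eef2k*, which inactivates eEF2, had a log2 fold change of -2.38 (adjusted p = 2.6e-06), *Eif2ak3* -1.05, *Eif2ak4* -1.0, *Eif2ak1* -0.71 and *Eif2ak2* -0.51. The phosphatase subunits *Ppp1r15b* (0.72) and *Ppp1r15a* (0.69) were those that rose, and with library totals neither passed. With the length correction 2 of the list rose and 3 fell. Of 13 genes of mTORC1 and MNK control, 3 rose and 6 fell, with a median of -0.04. The balance turned with the length correction, to 6 higher and 4 lower, and with library totals it was 2 and 10. *Rps6kb2* (1.21), *Rheb* (1.10) and *Rps6kb1* (0.32) rose, and *Deptor* (-1.92) and *Tsc2* (-1.65), both brakes on mTORC1, and the eIF4E kinase *Mknk2* (-1.41) fell. Among 12 targets of the integrated stress response, 6 rose and 1 fell (4 and 4 with library totals, 6 and 2 with the length correction): *Slc7a11* (3.06), *Psat1* (2.24) and *Atf4* (1.61) had the largest rises and *Vldlr* (-1.65) was the one that fell, while *Ddit3* (0.44, adjusted p = 0.094) and *Chac1* (0.31, 0.57) did not pass. These lists were chosen with earlier results of the data known, and the background is 34.1% higher and 36.8% lower of all genes for the counts with TMM factors, 16.9% and 54.6% for those with library totals, and 36.6% and 31.1% for those with the length correction.

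Promoter windows of RefSeq genes (GRCm38.p6, 250 bases before to 50 bases after the start) were found for 49 members and searched for CACGTG, the E-box bound by MYC and related factors, which reads the same on both strands. Some members have several starts, and all 61 windows were searched. The motif was in 14 of the 49 members (28.6%) and in 10.7% of 12783 tested genes with such a window. Of the 14 members with it, 8 rose and 3 fell, with a median log2 fold change of 0.35. *Eef1akmt4* and *Eef1akmt4-ece2* have the same window and count as 2 of the 14 and of the 8; with that window counted once, 13 of 48 had the motif. Of the 35 without it 26 rose and 7 fell, with a median of 0.89. Windows of 30 bases around the motif are shown for members of the same process that changed in opposite directions, the cap-binding *Eif4e* and its scaffold *Eif4g1*, and the elongation factors *Eif5a* and *Eef2*, each 5′ to 3′ on the strand of the gene with the motif in capitals.
Eif4e, chr3:138527192-138527221 (+): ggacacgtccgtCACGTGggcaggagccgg
Eif4g1, chr16:20672661-20672690 (+): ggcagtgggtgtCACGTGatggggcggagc
Eif5a, chr11:69921443-69921472 (-): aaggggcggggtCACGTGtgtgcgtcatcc
Eef2, chr10:81176576-81176605 (+): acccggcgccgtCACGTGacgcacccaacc
The log2 fold changes of these genes were 1.70, -0.83, 1.77 and -0.93, so the motif was present at genes of either direction. A match is a description of the letters and does not show binding.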

How the data were processed

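RNA-Seq of whole skin was taken from 5 control and 4 *Supt6*-KO mice. Reads were mapped by the authors with Bowtie2 2.3.4.3 (mm10), and the deposited values are RSEM 1.3.1 estimated counts for each gene, with no scaling between mice. They also deposited TPM for 6 of the 9 mice, used here only for control levels between genes and for lengths. The submitters' processing notes list HISAT and DESeq2 1.4.5 too. The annotation behind the counts is not given in the sources used here. About 9% of the estimated counts were not whole, and all were rounded.

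Identifiers were matched to RefSeq (GRCm38), 17917 of 17943. A gene needed at least 10 counts summed over the 9 mice. Groups were compared by the quasi-likelihood method of edgeR 4.0.16 in R 4.3.3, with TMM factors, no covariates and Benjamini-Hochberg adjustment over all 16428 genes. The members, the other gene lists and the tests were chosen with earlier results of these data known. Named were *Supt6*, the members past adjusted p under 0.05 and 2-fold (of these 33, the 12 highest and 12 lowest log2 fold changes, so that small rises are among the lowest), sets of paralogs, members named for their role, and in each other list up to 3 genes per direction. The length correction fitted a loess trend (span 0.4) against length in each mouse.

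As alternatives, the fit was repeated with library totals or upper-quartile scaling, DESeq2 1.42.0, looser and stricter filters, no abundant genes, a replicate block, length corrections and each mouse left out. Depth was 29627341 to 30967107 counts per mouse, and 3 counts per library were taken as the floor, which covers counting error only. The labels do not say whether samples were processed apart, so p-values measure the spread between these mice. The tests were tried on simulated counts, and no result given here rests on that trial. Tables and exact tests used Python 3.11.15, pandas 2.3.3 and scipy 1.17.1, and alignments Biopython 1.88.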

Additional observations from a re-analysis of the deposited data

Results flagged for a closer look

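In groups of 4 or 5 mice, 82 sets of values of named genes were examined for a mouse far from the others, and 3 stood out, where chance flags about 1 in 20 groups (4.1 expected). *Eif2s3x* was at 484 CPM in *Supt6*-KO mouse 4, against a median of 341 CPM in the *Supt6*-KO group. *Eif4a1* was at 1618 CPM in the same mouse, against a median of 1363 CPM. *Eif4e3* was at 17.6 CPM in control 2, against a median of 13.5 CPM in the controls.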

How the results depend on the processing

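DESeq2 called 47 members higher and 10 lower, the same genes as edgeR. Library totals moved the counts and the median of the members: 28 members rose and 16 fell, 14 and 10 of them at least 2-fold, the median log2 fold change was 0.23, and in the other lists 89 genes rose and 33 fell, against 125 and 19 with TMM factors. Without the ribosomal protein genes these counts were 18 and 32, against 43 and 18. Library totals also turned the log2 fold changes of *Eif1b* to -0.42, *Eif2s3x* to -0.10 and *Eif4a3* to -0.25. The length correction called 6 members lower with GENCODE lengths, 4 of them among the 10 of the main result. It also called 6 lower with the lengths implied by the deposited values, which were added after seeing the data, 3 of them among the 10. It turned *Eif1b* to -0.46 and *Eif5a2* to 0.52 with GENCODE lengths, and *Eif1b* to -0.67, *Eif4a3* to -0.07 and *Eif5a2* to 0.46 with implied lengths. The cause was not tested.

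With each mouse left out in turn, 43 to 46 members rose and 9 to 12 fell, 27 to 31 and 2 to 4 of them at least 2-fold, and the median log2 fold change was 0.86 to 0.99. Without *Supt6*-KO mouse 4, *Eif4ebp3* was at 0.10. *Eif1b* was no longer called in 8 of these 9 fits, and *Eif2s3x* and *Eif4a3* in 4 each.

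The labels do not say whether replicate numbers pair the mice. Deviations from the group mean had correlations of -0.011, 0.243, 0.222 and 0.059 between same-numbered mice. Their mean was 0.128, against -0.025 between mice of other numbers, which does not settle the question. With the number as a replicate block, 42 members rose and 10 fell, 27 and 2 at least 2-fold, with a median of 0.85.

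Depth limited only *Eif3j1*, *Eif4e1b*, *Eef1akmt3* and *Eef1akmt4-ece2*. With 5 mice against 4, an exact permutation p cannot go below 0.00794.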
